A study of Mus musculus with 24 samples.

Results

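The *Obox* genes encode homeodomain transcription factors that in the mouse are made mainly in oocytes and early embryos. The 6 members described here are *Obox1*, *Obox2*, *Obox3*, *Obox5*, *Obox6* and *Obox7*, taken by symbol from 55 annotated genes whose symbol starts with *Obox* and from 55471 genes in the deposited tables. They were read as a maternal set (*Obox1*, *Obox2*, *Obox5* and *Obox7*) and a zygotic set (*Obox3* and *Obox6*). All of the SLIM-seq material came from wild-type B6D2F1 mice, with 8-week-old superovulated females: oocytes at MII, embryos late in the 1-cell stage (L1C) and embryos late in the 2-cell stage (L2C), with 3 m6A immunoprecipitation (IP) and 3 input libraries each, the embryos from matings within the same strain. A second experiment compared 3 libraries of L2C embryos that had received Cas13d mRNA with crRNAs against *Ythdc1* as zygotes (KD) with 3 that had received Cas13d mRNA without crRNA (Ctrl), so that injection of a crRNA as such is not matched in Ctrl. SLIM-seq enriches RNA with N6-methyladenosine (m6A) from small samples, and *Ythdc1* encodes a nuclear reader of this mark.

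Oocytes store mRNA that is cleared after fertilization while the embryonic genome starts to be transcribed, a change that in the mouse culminates at the 2-cell stage. Homeodomain proteins bind short AT-rich DNA sequences, and *Obox* proteins are known to bind near genes that are switched on at this time, with members able to stand in for each other. m6A is laid down mostly at GGAC-like words of mRNA and can alter the splicing, decay and translation of the RNA that carries it.

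All 6 genes lie on chromosome 7 in GRCm38. *Obox7* (ENSMUSG00000055942, chr7:14659496-14665996, plus strand) stands apart from *Obox2* (ENSMUSG00000074369, chr7:15388721-15398545, plus), *Obox1* (ENSMUSG00000054310, chr7:15388948-15556866, plus), *Obox3* (ENSMUSG00000066772, chr7:15479825-15639902, minus), *Obox5* (ENSMUSG00000074366, chr7:15750131-15759800, plus) and *Obox6* (ENSMUSG00000041583, chr7:15833241-15839678, minus). The annotated span of *Obox1* is 167919 bases long, holds nearly all of *Obox2* and overlaps the span of *Obox3*. The exons of *Obox1* and *Obox2* overlap by 59 bases, and no exon of the other members overlaps an exon of another gene.

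The members are close paralogs. The stretch of 60 coding bases shown here was picked as the most alike, without gaps, in their alignment, so it is not typical of the whole coding sequences. It lies in the coding sequence of each gene and is given in the sense of its mRNA, as DNA, with capitals at the bases that differ from *Obox5*; 49 of the 60 positions are the same in all 6 members. The stretch of *Obox1* lies at chr7:15555276-15555335, that of *Obox2* at chr7:15396959-15397018, that of *Obox5* at chr7:15757651-15757710, that of *Obox7* at chr7:14664151-14664210, that of *Obox3* at chr7:15627165-15627224 and that of *Obox6* at chr7:15834749-15834808.
Obox1: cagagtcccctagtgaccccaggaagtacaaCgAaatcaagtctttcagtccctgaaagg
Obox2: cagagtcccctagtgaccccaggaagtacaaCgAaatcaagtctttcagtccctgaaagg
Obox5: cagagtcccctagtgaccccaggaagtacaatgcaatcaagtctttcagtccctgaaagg
Obox7: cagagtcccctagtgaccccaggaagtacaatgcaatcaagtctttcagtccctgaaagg
Obox3: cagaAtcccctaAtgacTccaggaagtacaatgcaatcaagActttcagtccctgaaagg
Obox6: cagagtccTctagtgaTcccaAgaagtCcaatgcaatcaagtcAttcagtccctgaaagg
*Obox1* and *Obox2* are identical over this stretch, as are *Obox5* and *Obox7*, while *Obox3* differs from *Obox5* at 4 bases and *Obox6* at 5.

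Over whole coding sequences, compared by pairs in a joint alignment of all members, *Obox1* and *Obox2* shared 98.5% of 453 aligned bases and *Obox5* and *Obox7* shared 96.0% of 654. *Obox3* was 93.1% to 94.0% identical to the 4 maternal members. *Obox6* was the most distant, with 73.7% to 79.8% identity to the others. Coding length ran from 453 bases in *Obox2* to 1041 in *Obox6*.

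How much of each gene can be read apart from its paralogs follows from the way the reads were counted. In the SLIM-seq tables each gene was 1 kallisto target that covers the whole gene span, introns included, so a read is shared when its words occur in the span of another gene. Every word of 31 bases (the default word length of kallisto; the setting of the deposited run is not given in the sources used here) in the exons of *Obox1* and of *Obox2* also lies in another gene span, as do 70.4% of those of *Obox3*, 43.7% of *Obox7*, 39.7% of *Obox5* and 12.9% of *Obox6*. With words of 100 bases the shares were still 100% for *Obox1* and *Obox2*, but 28.3% for *Obox3*, 3.23% for *Obox7*, 2.2% for *Obox5* and 0% for *Obox6*. Values of *Obox6*, *Obox5* and *Obox7* thus rest largely on sequence of their own, whereas the split of reads among *Obox1*, *Obox2* and *Obox3* is uncertain. In the knockdown table reads on exons were counted and, per the command in the file headers, which does not ask for them, reads with several places in the genome were not, which leaves out 51.2% of the 100-base exon words of *Obox1*, 48.3% of *Obox2*, 36.1% of *Obox3*, 3.23% of *Obox7*, 2.2% of *Obox5* and 0% of *Obox6*.

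**Figure D1:**
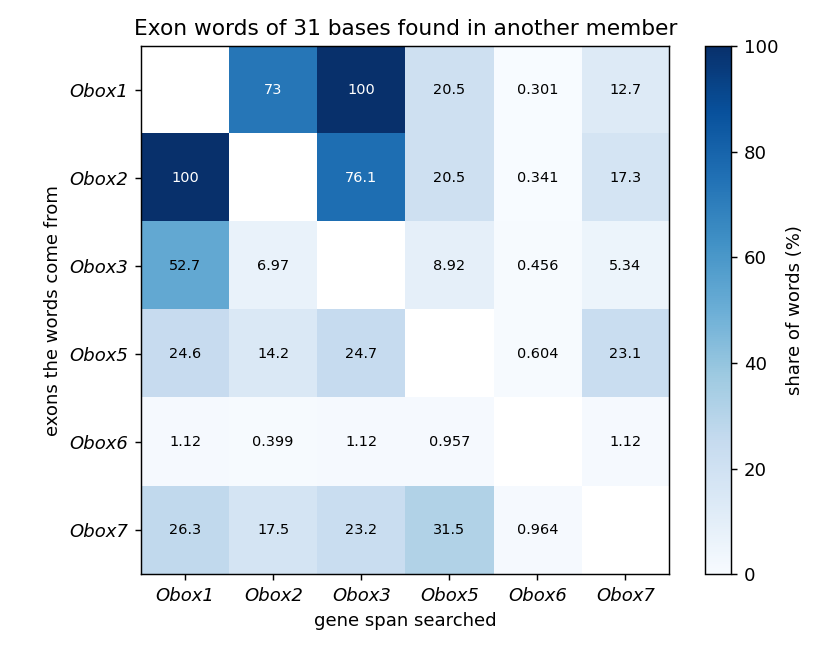
Share of the 31-base words in the exons of each member (rows) that also occur in the gene span of another member (columns), in percent. All words of *Obox1* recur in the span of *Obox3* and all words of *Obox2* in that of *Obox1*, while no row or column of *Obox6* exceeds 1.12%.

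Library totals ran from 11107421 to 39739950 estimated counts in SLIM-seq and from 3276715 to 5463868 counts in the knockdown table. Of 14 oocyte transcripts all were detected in every SLIM-seq library, and their summed input level was between 23665 and 24821 counts scaled to library size (CPM) at MII and between 1457 and 1469 at L2C. The 19 transcripts typical of 2-cell embryos summed to 101 to 116 CPM in MII inputs and 1320 to 1593 in L2C inputs. The 11 cumulus cell markers summed to 35.1 to 49.8 CPM in MII and L1C inputs and to 266 to 281 in L2C inputs, where *Amhr2*, one of the 11, was 8.52 higher on the log2 scale than at MII. Of the 7 cumulus markers tested from MII to L2C, 1 was higher and 5 were lower, where 47.5% of all genes tested were higher and 37.1% lower. The stages thus carried their markers. *Ythdc1* itself was at 498, 521 and 493 CPM in KD and 1114, 1138 and 1048 in Ctrl, so that the targeted RNA fell by 1.0 on the log2 scale (SE 0.06, edgeR adjusted p = 1.3e-10).

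The first comparison asks how RNA of the members changes from oocyte to 2-cell embryo, read from the 9 inputs in CPM of the library. The 4 maternal members were abundant at MII and L1C and fell at L2C, while *Obox6* and *Obox3* rose to L2C. From L1C to L2C all 6 members passed the test, 2 higher and 4 lower; this comparison called 82.9% of the 19903 genes tested. *Obox6*, with 1, 0 and 3 counts in the MII inputs, passed the filter on low counts only through later stages and is not counted in comparisons with MII. Of the other 5 members 3 passed between MII and L1C, 1 higher and 2 lower, against 56.2% of all genes tested. From MII to L2C all 5 passed, 1 higher and 4 lower, against 84.6%, so the number of calls is near the background and the description rests on the direction and size of each change. Genes called higher were 31.9% and lower 24.3% from MII to L1C, 44.1% and 38.8% from L1C to L2C, and 47.5% and 37.1% from MII to L2C. The median log2 change of the 4 maternal members from L1C to L2C was -3.51, beside 0.17 over all genes tested.

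*Obox5*, the maternal member with the most counts, held 653, 542 and 525 CPM in the 3 MII inputs, 697, 547 and 559 at L1C, and 91.3, 72.8 and 100.2 at L2C. The MII and L1C libraries overlapped (log2 change 0.02, SE 0.15, edgeR adjusted p = 0.94), and all L2C libraries lay below both. The fall from L1C to L2C was 2.86 on the log2 scale (SE 0.16, edgeR adjusted p = 5.4e-10). *Obox7* was at a lower level in each stage, with 95.3, 88.4 and 89.1 CPM in MII inputs, 114, 94.2 and 86.0 in L1C inputs, and 6.11, 6.34 and 7.89 in L2C inputs. Its MII and L1C inputs also overlapped (log2 change 0.06, SE 0.14, edgeR adjusted p = 0.76), and it fell by 3.94 on the log2 scale to L2C (SE 0.16, edgeR adjusted p = 2.9e-11).

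*Obox1* was at 321, 269 and 280.2 CPM in MII inputs, 546, 439 and 405 in L1C inputs and 65.5, 44.5 and 65.8 at L2C. Every L1C library stood above every MII library, a rise of 0.63 on the log2 scale (SE 0.16, edgeR adjusted p = 0.0045), before a fall of 3.08 (SE 0.17, edgeR adjusted p = 6.1e-10). *Obox2* moved the other way between MII and L1C, from 489.6, 448 and 453 CPM to 221, 185 and 173, and ended at 7.94, 4.97 and 10.5 at L2C. The groups did not overlap at either step: the change in log2 CPM was first -1.32 (SE 0.19, edgeR adjusted p = 5.4e-05), then -4.69 (SE 0.23, edgeR adjusted p = 1.2e-10). These opposite changes concern the pair of genes whose exon words are all shared with another gene span. Counted together, the 4 maternal members changed by -0.12 from MII to L1C (SE 0.15, edgeR adjusted p = 0.53) and by -3.16 from L1C to L2C (SE 0.16, edgeR adjusted p = 2.4e-10).

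*Obox3*, read here as a zygotic member, was already present in oocytes, with 45.3, 51.1 and 44.4 CPM at MII. It dropped to 14.4, 11.1 and 15.2 CPM at L1C and reached 175, 134 and 177 at L2C. Each step separated all libraries: a fall of 1.84 on the log2 scale (SE 0.16, edgeR adjusted p = 4.1e-07) and a rise of 3.48 (SE 0.17, edgeR adjusted p = 1.2e-10), for a net change of 1.64 from MII to L2C (SE 0.15, edgeR adjusted p = 1.3e-07). Of its 31-base exon words 52.7% recur in the span of *Obox1*, and whether reads of maternal paralogs add to its MII level was not tested.

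*Obox6* was close to absent before the 2-cell stage. The MII inputs held 1, 0 and 3 counts, a pooled 0.0626 CPM (exact Poisson 95% interval 0.0171 to 0.160, counting error only). The L1C inputs were at 1.21, 0.705 and 1.42 CPM and the L2C inputs at 372, 302 and 404. The ratio of pooled levels was 17.6 for L1C to MII (exact 95% interval 6.58 to 66.4) and 336 for L2C to L1C (266 to 430). The step from L1C to L2C passed the test (edgeR adjusted p = 3.1e-12), and the ratio to MII is a description. With 12.9% of its words shared, *Obox6* is the member least open to reads of its paralogs.

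**Figure D2:**
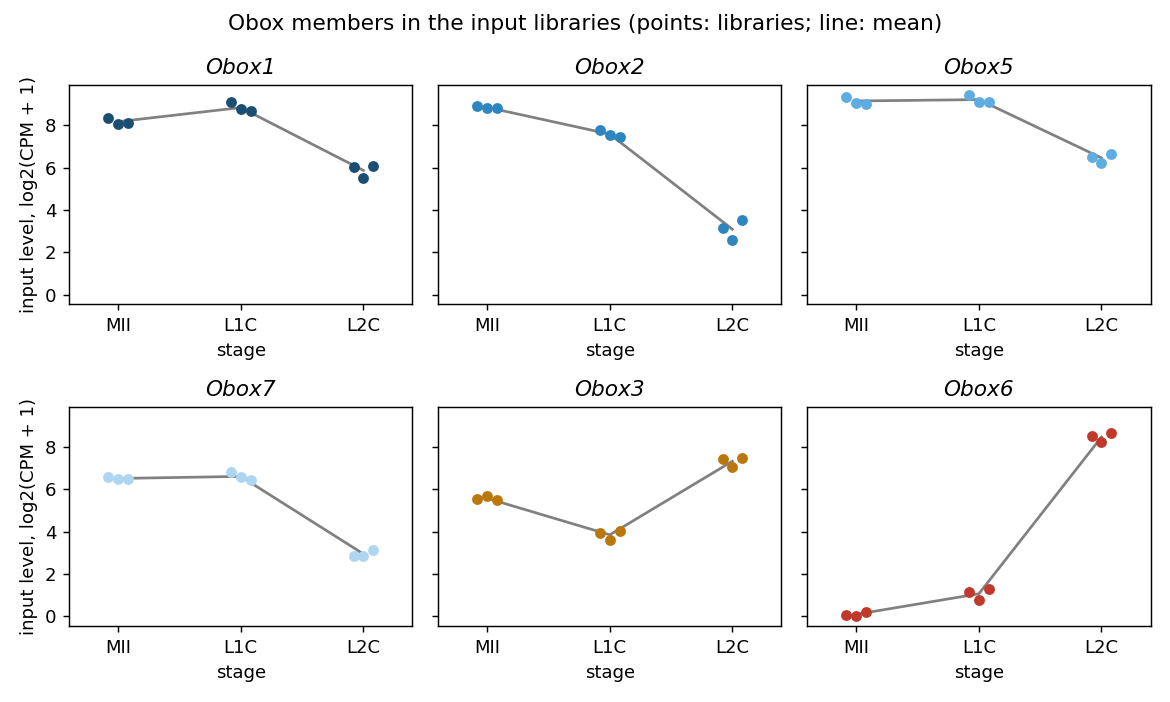
Level of each member in the 9 input libraries, as log2(CPM + 1), by stage; points are libraries and the line joins the means. The maternal members (blue) are highest at MII or L1C, *Obox3* dips at L1C to between 11.1 and 15.2 CPM, and *Obox6* goes from at most 0.162 CPM at MII to between 302 and 404 at L2C.

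Seen as a family, the summed level of all 55 *Obox* genes lay between 1228 and 1466 CPM in the stage means, lowest at L2C, while its make-up turned over. The sum was 1466 ± 121 CPM in MII inputs (mean ± SD, n = 3), 1463 ± 204 in L1C inputs and 1228 ± 155 in L2C inputs. It changed by -0.05 on the log2 scale from MII to L1C (SE 0.14, edgeR adjusted p = 0.77) and by -0.35 from L1C to L2C (SE 0.14, edgeR adjusted p = 0.029). The net change from MII to L2C was -0.40 (SE 0.14, edgeR adjusted p = 0.014). The maternal members held 96.7% ± 0.41 of the *Obox* counts in MII inputs, 92.6% ± 0.33 in those of L1C and 13.1% ± 0.90 in those of L2C. The zygotic members held 3.23% ± 0.41, 1.0% ± 0.21 and 42.4% ± 1.6 at the same stages. CPM is a share of the library, so these values say nothing of the amount of RNA per embryo.

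**Figure D3:**
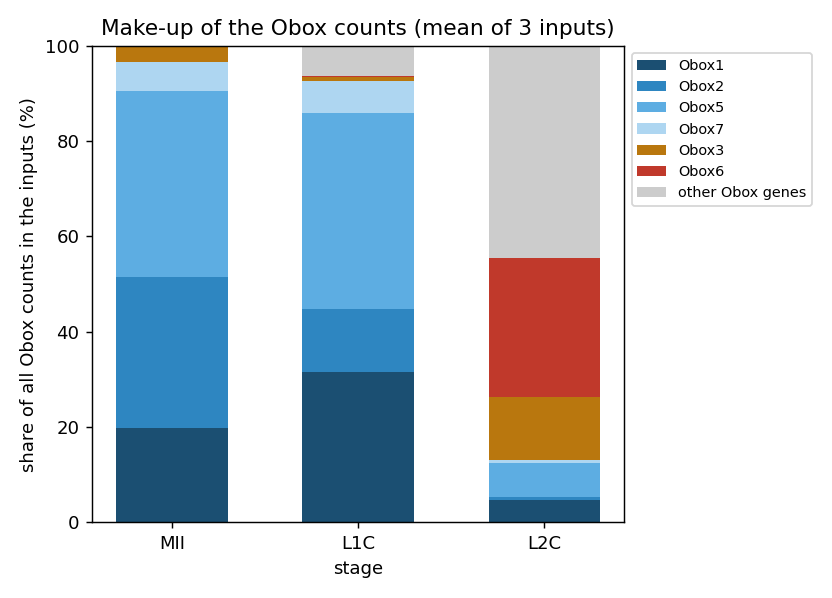
Share of all counts on genes named *Obox* (y axis, percent, from 0 to 100) held by each member in the inputs of each stage, as the mean of 3 libraries; grey is the sum of the other 49 *Obox* genes. The 4 maternal members fill 96.7% of the bar at MII and 13.1% at L2C.

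The other 49 *Obox* genes, most of them annotated as pseudogenes, supplied the rest of the L2C counts, with the same uncertainty in the split of reads between near copies. At MII 0 or 1 of the 49 held at least 10 counts in an input, at L1C 14 to 17 and at L2C 16 to 23. The 22 that passed the filter on low counts did so through the L1C or L2C libraries where they are high, which can set the direction of a change between stages, so their values are given as a description and without a test. They did not all move one way: the log2 change from L1C to L2C was -1.93 in *Obox4-ps28* and -2.08 in *Obox4-ps27*. Among those called, the 4 with the highest mean level in the inputs were *Obox8*, *Obox3-ps5*, *Obox3-ps2* and *Obox4-ps35*. *Obox8*, a protein-coding gene, was at 0.699 CPM or less in every MII and L1C input and at 167, 186 and 183 at L2C, from 8, 8 and 13 counts in the L1C inputs. *Obox3-ps5* reached 102, 98.8 and 124 CPM at L2C, *Obox3-ps2* 88.2, 78.8 and 109, and *Obox4-ps35* 65.5, 51.7 and 73.6. *Crxos*, a homeobox gene next to the cluster, went from 1.54, 1.83 and 1.85 CPM at L1C to 216, 232 and 251 at L2C.

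To compare levels between genes, CPM was divided by the kilobases of annotated exon, which span 1344 bases in *Obox6* to 3191 in *Obox3*. The SLIM-seq counts cover whole gene spans, introns included, so counts and divisor do not cover the same sequence. The places of *Obox1*, *Obox2* and *Obox3* also depend on the uncertain split of their reads, and the order is a description. At MII the order was *Obox2* (282 ± 13.7 CPM per kb), *Obox5* (268 ± 32.4), *Obox1* (153 ± 14.6), *Obox7* (56.8 ± 2.4), *Obox3* (14.7 ± 1.1) and *Obox6* (0.0503 ± 0.063), and only *Obox2* and *Obox5* overlapped. At L1C it was *Obox5* (281 ± 39) before *Obox1* (244 ± 38.6), which overlapped, then *Obox2*, *Obox7*, *Obox3* and *Obox6*, each apart from the next. At L2C *Obox6* led (267 ± 39), apart from *Obox3* (50.8 ± 7.6), which overlapped *Obox5* (41.2 ± 6.5). *Obox5* in turn overlapped *Obox1* (30.9 ± 6.4), and *Obox2* (4.74 ± 1.7) overlapped *Obox7* (4.23 ± 0.60). On the deposited TPM, which divides by the gene span, the order differs, since the spans of *Obox1* and *Obox3* are many times those of the rest: *Obox1* was at 14.3 ± 1.6 TPM and *Obox2* at 400.3 ± 27.7 at MII.

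Genes outside the family with the most similar course over the 9 inputs were found by the root mean square difference of centred log2(CPM + 1), among 9943 protein-coding genes with a mean of at least 5 CPM. They were *Rnf32* for *Obox1* (difference 0.10), *Pms1* for *Obox2* (0.21), *Msrb3* for *Obox5* (0.08), *Idh1* for *Obox7* (0.11), *Yeats2* for *Obox3* (0.16) and *Slc1a5* for *Obox6* (0.22). *Yeats2* had the same dip as *Obox3*, with means of 67.0, 19.1 and 255 CPM at MII, L1C and L2C. *Slc1a5*, an amino acid transporter, had means of 0.378, 1.53 and 371 CPM. The next most similar to *Obox6* was *Gabpa*, a transcription factor of the ETS family, with 0.266, 2.55 and 477 CPM. The points share libraries and depth, and nothing on control or function follows from them.

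Sequence around the annotated start from RefSeq (GRCm38.p6) was given for 5 of the 6 members, not for *Obox6*. It was searched on both strands for core words of homeodomain proteins, first TAATTA, a second word that ends differently, TAATTG, and the word known from paired-like factors, TAATCC. The core of the promoter element bound by the TATA-binding protein, TATAAA, was searched in the same way, and no match overlapped another. The window of *Obox3*, which rose at L2C, held TAATCC once and TATAAA once, words that 7.06% and 13.6% of 32851 promoters of the same length hold. None of the 4 words occurred in the windows of *Obox1*, *Obox2*, *Obox5* and *Obox7*, which fell. The part of the *Obox3* window upstream of annotated exons, at chr7:15639903-15640027 on the minus strand, is shown with the 2 matches in capitals (GGATTA is TAATCC read on the other strand), beside that of *Obox2*, at chr7:15388601-15388720 on the plus strand, as an example of a member that fell.
Obox3: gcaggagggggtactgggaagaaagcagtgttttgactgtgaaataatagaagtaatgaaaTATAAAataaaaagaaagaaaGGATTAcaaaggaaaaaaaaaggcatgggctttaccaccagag
Obox2: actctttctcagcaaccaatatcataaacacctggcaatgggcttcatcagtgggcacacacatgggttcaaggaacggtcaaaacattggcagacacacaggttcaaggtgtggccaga
A match in these letters is a description and not a bound site.

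The second comparison asks which members the m6A antibody enriched, with each IP library set against the mean of the 3 inputs of its stage after TMM scaling over all 18 libraries. *Obox2*, *Obox3* and *Obox7* were enriched at all 3 stages and *Obox5* at L1C and L2C. *Obox6* did not pass the main test at L1C or L2C and had too few counts at MII to be read. At MII 3 of the 5 other members passed, all higher in IP, where 17.7% of the 21950 genes tested were called higher. *Obox6*, with 1, 0 and 3 counts in the MII inputs, is not counted there. The number at MII depended on the settings: 5 passed under DESeq2, library size scaling, no filter and only the stages compared, with *Obox1* (DESeq2 0.46, adjusted p = 0.030) and *Obox5* (DESeq2 0.44, adjusted p = 0.015) added. Library size scaling also raised the genes called higher at MII, from 3877 to 5744 of the 21950 tested. At L1C 5 of 6 passed, against 15.8%, and at L2C 4 of 6, against 22.0%. The median log2 IP/input of the 6 members was 0.42 in MII, 0.74 in L1C and 0.63 in L2C, beside 0.00, 0.07 and 0.09 over all genes tested. The MII median still includes *Obox6*.

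*Obox3* had the highest enrichment of the members at MII and L1C. Its 3 IP libraries were at log2 IP/input 0.78, 0.88 and 1.02 in MII, 1.19, 1.27 and 1.31 in L1C and 0.86, 0.40 and 0.77 in L2C. All IP libraries lay above all inputs of their stage, and the fitted values were 0.90 (SE 0.15, edgeR adjusted p = 6.1e-05), 1.27 (SE 0.15, edgeR adjusted p = 2.8e-06) and 0.68 (SE 0.14, edgeR adjusted p = 8.9e-04). *Obox7* was at 0.58, 0.71 and 0.45 in MII, 0.90, 0.79 and 0.64 in L1C and 0.56, 0.38 and 0.71 in L2C. Its IP libraries also stood above the inputs throughout, with fitted values of 0.59, 0.77 and 0.59 (SE 0.13 to 0.15, edgeR adjusted p = 0.0016, 1.7e-04 and 0.0035).

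*Obox2* was at log2 IP/input 0.43, 0.54 and 0.36 in MII, 0.95, 0.90 and 0.76 in L1C and 1.15, 1.22 and 1.04 in L2C. Its IP libraries lay above the inputs at every stage, and the fitted values were 0.44 (SE 0.17, edgeR adjusted p = 0.048), 0.86 (SE 0.17, edgeR adjusted p = 6.4e-04) and 1.10 (SE 0.19, edgeR adjusted p = 1.1e-04). The call at MII was marginal: it was lost in 14 of 18 fits that left out 1 library each, with adjusted p from 0.050 to 0.13. *Obox5* was at 0.29, 0.61 and 0.21 in MII, where IP and input libraries overlapped, at 0.83, 0.80 and 0.50 in L1C, and at 0.84, 0.59 and 0.86 in L2C, with no overlap at the later stages. The fitted values were 0.37 (SE 0.16, edgeR adjusted p = 0.069), 0.71 (SE 0.16, edgeR adjusted p = 0.0016) and 0.75 (SE 0.16, edgeR adjusted p = 7.8e-04). Without MII input replicate 1 the MII value of *Obox5* passed (0.49, edgeR adjusted p = 0.036), and without MII IP replicate 2 it was 0.24 and did not.

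*Obox1* was at log2 IP/input 0.45, 0.62 and 0.08 in MII, 0.70, 0.66 and 0.37 in L1C and 0.61, 0.16 and 0.60 in L2C. Only at L1C did every IP library lie above every input, and in the main fit only there did it pass (0.57, SE 0.18, edgeR adjusted p = 0.018). The MII value was 0.39 (SE 0.18, edgeR adjusted p = 0.092) and the L2C value 0.45 (SE 0.18, edgeR adjusted p = 0.050). The L1C call was lost without L1C input replicate 2 or 3 or L1C IP replicate 1 or 2 (0.46 to 0.53, edgeR adjusted p from 0.058 to 0.094). The MII value passed without MII IP replicate 3 (0.53, edgeR adjusted p = 0.036) and was lowest without MII IP replicate 2 (0.27). At L2C it passed without MII IP replicate 3, L1C input replicate 1, L2C input replicate 3 or L2C IP replicate 2, with values from 0.44 to 0.58 and adjusted p from 0.020 to 0.045 (edgeR), and did not pass with any other single library left out, the lowest value being 0.27 without L2C input replicate 2.

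*Obox6*, with 372, 302 and 404 CPM in the L2C inputs, was at 562, 505 and 552 in the L2C IP libraries. After TMM scaling this gave log2 IP/input 0.43, 0.22 and 0.38, with IP and input libraries overlapping and a fitted value of 0.33 (SE 0.18, edgeR adjusted p = 0.15). With 1 library left out, the L2C value of *Obox6* ran from 0.20 to 0.44 and passed in none of the 18 fits. At L1C it was at -0.03, -0.32 and -0.26, from 27, 25.2 and 35 estimated counts in the IP libraries, and at MII it had too few counts to read. Scaling by library size alone raises the median log2 IP/input of all genes to 0.20 in MII, 0.37 in L1C and 0.34 in L2C, and on that scale *Obox6* passed at L2C (0.59), as did *Obox1* (0.71). DESeq2 also called both at L2C, *Obox6* at 0.33 (adjusted p = 0.043) and *Obox1* at 0.44 (adjusted p = 0.040). When thresholds like those of the study (log2 IP/input above 0, unadjusted p under 0.05 and more than 1 count in each input) were applied to the edgeR fit of all 3 replicates, in place of DESeq2 and without its further conditions on replicates, 5 of the 6 members passed at every stage, all but *Obox6*. Those thresholds passed 19.5%, 18.9% and 24.3% of all genes tested at MII, L1C and L2C.

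**Figure D4:**
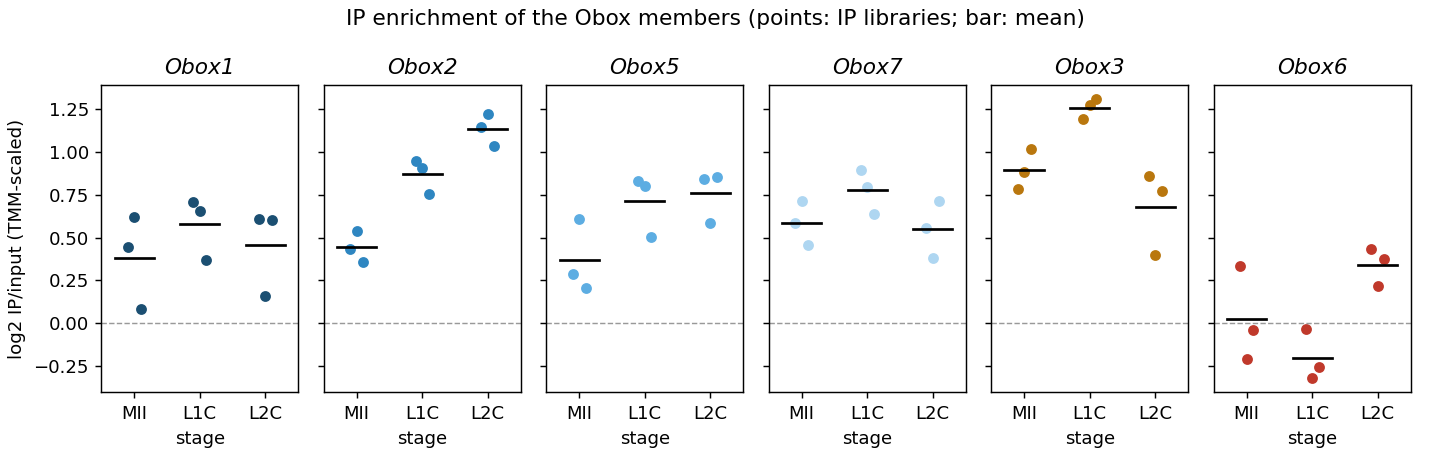
log2 IP/input of each member in the 3 IP libraries of each stage, TMM-scaled, against the mean of the 3 inputs; bars are means and the dashed line is 0. *Obox3* at L1C is the highest, between 1.19 and 1.31, and *Obox6* does not exceed 0.43 at any stage.

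The change of log2 IP/input from one stage to another was tested directly, as an interaction term. No member passed in any of the 3 stage comparisons (edgeR, adjusted p under 0.05), beside 7.33% of all genes for L1C against MII, 9.47% for L2C against L1C and 20.3% for L2C against MII. *Obox6* had too few counts at MII to be read in the comparisons with MII. The share for L2C against L1C, from 1098 genes higher and 981 lower, rests in part on single libraries: without L2C IP replicate 3 the counts were 681 and 588, and with only the stages compared 566 and 1687. At an unadjusted p under 0.05 there were 0, 1 and 1 members, beside 4420, 5283 and 7092 of the 21950 genes. DESeq2 called 0, 1 and 0 members, where it called 1012, 1306 and 2418 genes higher and 1203, 1747 and 2678 lower. *Obox3* was lower at L2C than at L1C by 0.60 on the log2 scale (SE 0.21, edgeR adjusted p = 0.079), the value that DESeq2 called (-0.65, adjusted p = 0.0088). It also passed without L2C input replicate 2 (-0.73, edgeR adjusted p = 0.037), and was smallest without L1C input replicate 2 (-0.47), where it did not. *Obox2* was higher at L2C than at MII by 0.66 (SE 0.25, edgeR adjusted p = 0.074), and passed without L2C input replicate 3 (0.96, edgeR adjusted p = 0.0056), while without L2C input replicate 2 it was 0.42 and did not. For *Obox1* the same difference was 0.06, with an interval of 2 SE from -0.45 to 0.56.

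The sequence of the RNAs bears on the same question. GGACT, the DNA spelling of a word that often carries m6A, occurs in the coding sequence of no member. The longest annotated transcripts of *Obox3* and *Obox5* hold it once each and those of the other 4 members not at all, while 89.0% of 21405 mRNAs, the longest of each gene with short ones left out, hold it and their median is 1.02 per kb. Of the related words, GGACA occurs 4 times in *Obox3*, once in *Obox5* and *Obox7* and not in the others, GGACC once in each member but 3 times in *Obox6*, and AGACT once to 3 times in every member. These words were searched on the sense strand only, and 91.4%, 87.1% and 88.9% of the mRNAs hold them.

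The third comparison asks how the members respond when *Ythdc1* is knocked down. Of the 6 members, 4 were lower and 1 was higher in KD than in Ctrl, where 70.9% of the 7433 genes tested were called, 33.5% higher and 37.4% lower. The CPM of KD and Ctrl libraries, before TMM scaling, did not overlap for any of the 6. The median log2 change of the members was -0.67, beside -0.06 over all genes tested. CPM here is relative to the counts in the table, which ends on chromosome 7 past the *Obox* genes, so levels cannot be set against those of the inputs above.

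*Obox7* had the largest change, from 84.6, 73.3 and 90.0 CPM in Ctrl to 22.5, 21.5 and 29.6 in KD (log2 change -1.61, SE 0.14, edgeR adjusted p = 8.6e-09), and was the only member past the thresholds of the study applied to the edgeR fit (unadjusted p under 0.05 and a log2 change above 1 in size), which 37.2% of the genes tested met. *Obox2* was at 81.4, 80.1 and 76.9 CPM in Ctrl and 36.2, 44.3 and 46.7 in KD (log2 change -0.78, SE 0.12, edgeR adjusted p = 8.0e-06). *Obox1* was at 108, 112 and 109.9 CPM in Ctrl and 69.9, 58.8 and 74.6 in KD (log2 change -0.57, SE 0.10, edgeR adjusted p = 9.1e-05). For each of these 3 members all KD libraries lay below all Ctrl libraries. *Obox5*, the most abundant maternal member in Ctrl, was at 393, 403 and 384 CPM there and 317, 313 and 354 in KD, and did not pass (log2 change -0.14, SE 0.07, edgeR adjusted p = 0.092). It passed without KD replicate 3 (-0.20, edgeR adjusted p = 0.037), without Ctrl replicate 3 (-0.16, edgeR adjusted p = 0.035) and with scaling by library size (-0.26, edgeR adjusted p = 0.0024), which moves the median of all genes to -0.19. Without KD replicate 2 it was -0.089 and did not pass.

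The 2 zygotic members went in opposite directions. *Obox3* fell from 526, 496 and 462 CPM to 244, 247 and 273 (log2 change -0.84, SE 0.08, edgeR adjusted p = 1.7e-08). *Obox6* was at 2049, 2046 and 1994 CPM in Ctrl and 2276, 2183 and 2381 in KD, a rise of 0.29 (SE 0.06, edgeR adjusted p = 1.7e-04) and of 0.17 with scaling by library size. Summed, the 4 maternal members fell by 0.40 on the log2 scale (SE 0.07, edgeR adjusted p = 4.1e-05), while *Obox3* and *Obox6* together changed by 0.13 (SE 0.06, edgeR adjusted p = 0.052), a sum in which *Obox6* holds most of the counts. In the 5 libraries that cover the whole annotation the same 5 members passed, in the same directions.

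**Figure D5:**
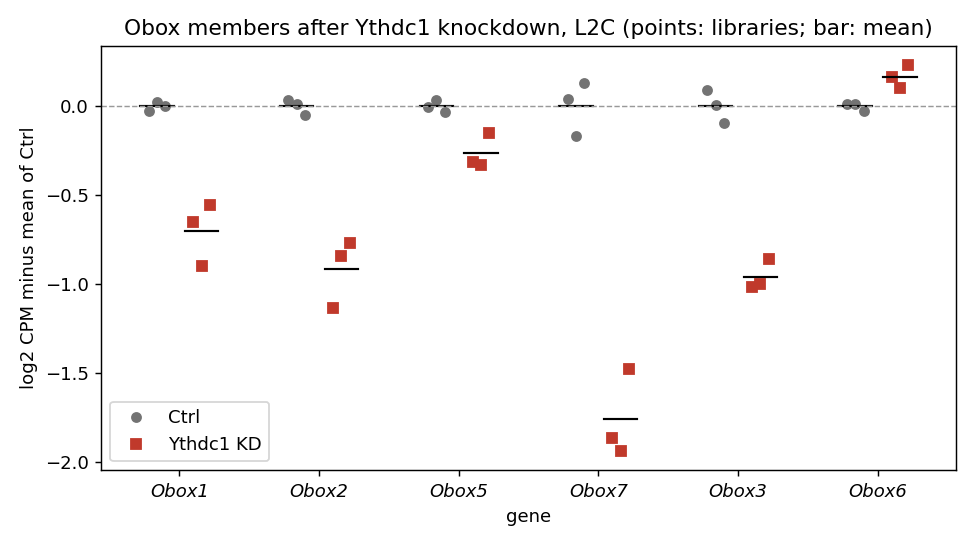
log2 CPM of each member in the 3 Ctrl (grey circles) and 3 KD (red squares) libraries, minus the mean of Ctrl; bars are means. KD libraries lie below Ctrl for 5 members, farthest for *Obox7* with 21.5 to 29.6 CPM against 73.3 to 90.0, and above Ctrl for *Obox6*.

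Markers of stage moved with these changes. Of 17 tested 2-cell transcripts 15 were lower and 1 higher in KD, and their sum was 1466 to 1613 CPM in KD and 4610 to 4825 in Ctrl. Of 8 tested oocyte transcripts 4 were lower and 1 higher, with a sum of 1045 to 1089 CPM in KD and 1812 to 1823 in Ctrl. The table held 3 cumulus cell markers, of which 1 was tested and did not pass, and they summed to at most 25.9 CPM in any library. The part of embryo stage in the *Obox* values was not tested. Among the other *Obox* genes 12 could be tested, of which 9 were lower and 2 higher. Most of these are pseudogenes that are near copies, so they do not count as independent genes. Over all genes tested 33.5% were higher and 37.4% lower in KD. *Obox8* was higher in KD (505, 511 and 515 CPM against 293, 309.6 and 312; log2 change 0.87, SE 0.06, edgeR adjusted p = 1.3e-09). *Obox4-ps35* was lower (log2 change -0.88, SE 0.08, edgeR adjusted p = 1.2e-08), as were *Obox3-ps2* (-1.12) and *Obox3-ps5* (-0.91). *Crxos* was at 9281, 9476 and 9405 CPM in Ctrl and 8843, 8429 and 9102 in KD, groups that do not overlap in CPM, while the change after TMM scaling was 0.03 on the log2 scale (edgeR adjusted p = 0.63).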

How the data were processed

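The data are 18 SLIM-seq libraries and 6 *Ythdc1* knockdown libraries of mouse oocytes and embryos. For SLIM-seq the authors deposited kallisto estimated counts, not scaled to library size, and TPM, divided by the effective length of the gene span. For the knockdown the authors deposited featureCounts counts of reads on exons, after Trimmomatic and alignment to GRCm38 by Hisat2; their merged table holds 25739 genes, and KD replicate 3 ends there too. Estimated counts were rounded and fitted with the quasi-likelihood test of edgeR 4.0.16 (R 4.3.3) on TMM-scaled counts after its filter on low counts, with the Benjamini-Hochberg adjustment over all genes tested and calls at 0.05: the 9 inputs together, all 18 SLIM-seq libraries together, and the 6 knockdown libraries. DESeq2 1.42.0, library size scaling, no filter, summed paralogs, the replicate block, fewer stages and each library left out were alternatives. Log2 IP/input per library used a pseudocount of 0.5. Fits were tested on simulated data. Total counts are in the report; chi-square per degree of freedom between replicates was 2.77 to 41.6, above counting error, and no pair was a duplicate. Nothing states that replicates came from separate animals, so p-values cover the spread between these libraries only.

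Named genes are the 6 members, *Ythdc1*, *Crxos*, the 4 other *Obox* genes with the highest input level among those called, the 3 most similar genes per member, and from each list genes among the 2 with the smallest p in each direction; a gene that this rule names is not reported here. Members and lists were chosen with earlier results of these data known. Of 93 list genes 1 matched no annotated symbol. Exons came from the annotation deposited with the featureCounts counts, gene symbols, transcripts and coding sequences from GENCODE M21, and promoters from RefSeq. Coding sequences were aligned with mafft 7.526. Values were handled with pandas 2.3.3, numpy 2.4.6 and scipy 1.17.1 under Python 3.11.15, and drawn with matplotlib 3.10.9.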

Additional observations from a re-analysis of the deposited data

How the results depend on the processing

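All 6 members kept direction and call in the inputs from L1C to L2C under every alternative run, as did the 5 other than *Obox6* from MII to L2C and *Obox1*, *Obox2* and *Obox3* from MII to L1C. Of single members, values that changed sign other than by leaving out a replicate were uncalled: from MII to L1C *Obox7* under DESeq2 (-0.0010) and *Obox5* under DESeq2 (-0.040) and without the filter (-0.037). In the change of IP/input from L1C to L2C it was *Obox5* under DESeq2 (-0.0034), library size scaling (-0.0024) and only the stages compared (-0.14). From MII to L2C it was *Obox7* under library size scaling (0.019), *Obox1* under DESeq2 (-0.017) and only the stages compared (-0.11), and *Obox6* under the latter (-0.066). The members enriched at MII were 5 in place of 3 under DESeq2, library size scaling, no filter, only the stages compared and the thresholds of the study's tag rule. For the change of IP/input from L1C to L2C 1 member in place of 0 passed under DESeq2, library size scaling and only the stages compared (*Obox3*), and from MII to L2C 1 without the filter (*Obox2*). The thresholds of the study for KD genes left 1 of 5 members. Summed counts of *Obox3* and *Obox6* turned the mean change of the pair to -1.73 from MII to L1C and to 0.13 in KD, and the sum over all *Obox* genes was -0.052 from MII to L1C; the sums follow the member with more counts. With 1 library left out, members called, with *Obox6* counted, ranged from 4 to 4, 6 to 6 and 6 to 6 in the inputs, 2 to 3, 4 to 5 and 4 to 5 for IP at MII, L1C and L2C, 0 to 0, 0 to 1 and 0 to 1 for the change of IP/input, and 5 to 6 in KD (6 without KD replicate 3 or Ctrl replicate 3). Left-out ranges that crossed 0 were -0.064 to 0.13 (*Obox7*) and -0.10 to 0.12 (*Obox5*) from MII to L1C, -1.34 to 1.59 for IP of *Obox6* at MII, -1.93 to 1.00 for its change of IP/input from MII to L1C and -1.27 to 1.66 from MII to L2C. The others were -0.0030 to 0.54 (*Obox2*), -0.29 to 0.011 (*Obox1*) and -0.089 to 0.16 (*Obox5*) from L1C to L2C, and -0.10 to 0.14 (*Obox7*) and -0.12 to 0.18 (*Obox1*) from MII to L2C. Inputs and IP came from the same batches, but nothing ties their replicate numbers, and same-numbered samples did not deviate together (correlations -0.23 to 0.22). With the replicate block 2 members passed for IP at MII (*Obox2* 0.45, adjusted p = 0.058) and 5 at L2C (*Obox1* 0.45, adjusted p = 0.042); the numbers of called members were otherwise as before. Across all genes tested, the block moved no count by over 1.5 times. Library size scaling raised the genes called higher in IP from 3463 to 6372 at L1C and from 4830 to 7315 at L2C. It reduced the genes called lower in IP at L1C from 3988 to 2613. With 1 library left out, genes called for the change of IP/input ranged from 440 to 770 higher from MII to L1C, and from 681 to 1133 higher and 588 to 1049 lower from L1C to L2C. With only the stages compared, 444 were higher from MII to L1C. The cause of these changes was not tested. Depth limits *Obox6* before L2C, where no library held more than 35 counts.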

Other observations

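Other transcription factors were followed on lists by class. Of 24 annotated paired-like homeobox genes related to *Obox*, 17 were tested in the inputs, and from L1C to L2C 7 were higher and 7 lower, where 44.1% of all genes tested were higher and 38.8% lower. *Crxos* (log2 change 6.98, SE 0.22, edgeR adjusted p = 2.9e-12) rose, and *Nobox*, needed for oocyte growth (-4.01, edgeR adjusted p = 1.5e-10), and *Duxf3*, the *Dux* gene that activates 2-cell genes (-3.98, edgeR adjusted p = 2.0e-10), fell. The log2 change of *Mixl1* was 4.93 with a larger SE of 0.34, and is given as a description. The log2 change of *Duxf3* from MII to L1C was 8.08, given as a description.

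Of 11 transcription factors of the oocyte, 9 were lower and 2 higher at L2C than at L1C, where 38.8% of all genes tested were lower and 44.1% higher. *Lhx8* (-2.80, edgeR adjusted p = 5.7e-11) fell as the maternal *Obox* genes did, and *Taf4b* (3.82, SE 0.16, edgeR adjusted p = 3.1e-11) rose. The log2 change of *Sohlh1* was 3.68 with a larger SE of 0.58, and is given as a description. Of 15 tested factors linked to genome activation 11 were higher and 3 lower, led by *Gabpa* (7.44, edgeR adjusted p = 2.1e-12) and *Rarg* (6.38, edgeR adjusted p = 3.8e-12). In IP at L2C 22.0% of all genes tested were higher and 22.0% lower. Of the classes, 2 of 18 homeobox genes were higher and 6 lower, 2 of 11 oocyte factors higher and 4 lower, and 2 of 16 activation factors higher and 6 lower.

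In KD 2 of 7 tested homeobox genes were higher and 3 lower, among them *Mixl1*, which rose (2.02, edgeR adjusted p = 3.1e-12); of all genes tested 33.5% were higher and 37.4% lower. Of 4 tested oocyte factors 2 were lower, *Nobox* (-1.47, edgeR adjusted p = 0.0013) and *Tbpl2* (-0.54, edgeR adjusted p = 0.043). Of 7 activation factors 4 were higher, with *Nr5a2* at 0.84 and *Tfap2c* at 1.23, and 2 were lower, at -2.09 and -0.21.

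The members held different shares at L2C in the 2 experiments. Of the counts on the 6 members, *Obox6* held 52.7% ± 0.86 (SD, n = 3) in the L2C inputs and 63.6% ± 0.39 in Ctrl, *Obox3* 23.7% ± 0.67 and 15.5% ± 0.70, and *Obox1* 8.54% ± 0.62 and 3.44% ± 0.11. *Obox2* held 1.12% ± 0.25 and 2.49% ± 0.023, and *Obox7* 1.0% ± 0.14 and 2.59% ± 0.30. *Obox5*, at 12.9% ± 0.18 and 12.3% ± 0.22, moved least in proportion. The experiments differ in embryos, libraries and counting, so the source of the difference cannot be told apart.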
